A study of Sus scrofa with 4 samples.

Results

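The breakdown of the branched-chain amino acids (BCAAs) leucine, isoleucine and valine was followed through the mRNAs of 10 enzymes during the differentiation of porcine subcutaneous preadipocytes. BCAT2, BCKDHA, BCKDHB, DBT, IVD, MCCC1, MCCC2, HIBADH, HIBCH and ALDH6A1 were taken by name from the 16192 protein-coding genes of the deposited tables, and each name matched 1 row. All 10 were reliably expressed, that is with FPKM of 1 or more in 3 or more libraries, as were 9191 of the 16192 protein-coding genes. FPKM counts the fragments of a gene per length of the gene and per fragments counted in its library, so that levels of different genes can be set side by side. The cells came from the subcutaneous fat of male Chinese Erhualian piglets that were a few days old. They were sampled at confluence (D0), after 2 days with dexamethasone, 3-isobutyl-1-methylxanthine and insulin in serum-containing growth medium (D2), after 2 more days with insulin alone (D4), and at D8, after growth medium without added hormones. For each stage, equal amounts of RNA from 3 piglets were pooled into 1 library, so that no replicates exist, a stage cannot be told apart from its library, and stages were not tested against each other. The 95% intervals given below come from read numbers and cover counting error only. In RNA of whole cultures, fewer cells with an mRNA and less of it per cell cannot be told apart.

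BCAAs are broken down in mitochondria. The first step, removal of the amino group, is catalysed by the mitochondrial transaminase BCAT2, and the second, which commits the carbon to breakdown, by the branched-chain ketoacid dehydrogenase complex, built from the E1 subunits BCKDHA and BCKDHB, the E2 core DBT and the E3 subunit DLD, which other dehydrogenase complexes share. The routes then part. Leucine carbon passes through isovaleryl-CoA dehydrogenase (IVD) and the biotin-dependent methylcrotonyl-CoA carboxylase (MCCC1 and MCCC2) toward acetyl-CoA, and valine carbon through HIBCH, HIBADH and ALDH6A1 toward propionyl-CoA. Adipose tissue is known as a site of BCAA breakdown, and in adipocytes the carbon can enter fatty acid synthesis.

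The 4 libraries held between 54128150 and 75387428 counted fragments, and the 10 enzymes had between 191 and 4580 reads each per library. Of 8 adipocyte markers, all were listed, 6 were reliably expressed, and the summed FPKM of the 8 was 103 (D0), 396 (D2), 1498 (D4) and 1934 (D8). Most of the sum at D4 and D8 was FABP4 (FPKM 853 and 1557). FABP4, CIDEC and LEP were higher at D8 than at D4, whereas ADIPOQ, PLIN1, LIPE, PPARG and CEBPA were lower. The summed FPKM of 7 preadipocyte or fibroblast markers was 1130 (D0), 2272 (D2), 3034 (D4) and 2296 (D8), highest at D4 like most of the enzymes. Most of the D4 sum was COL3A1 (FPKM 2058). COL3A1, DCN, LUM and PDGFRB were highest at D4, whereas PDGFRA and COL1A1 were highest at D2 and THY1 at D0. The summed FPKM of 5 smooth muscle or myofibroblast markers was 6205 (D0), 664 (D2), 509 (D4) and 4810 (D8), with none of the 5 at 0. This muscle-type sum was thus high at D0 and D8, at which most of the 10 enzymes were lower than at D4. At D8 the sum was mostly ACTA2 (FPKM 2762) and TAGLN (1987). CNN1 had FPKM 94.3 at D0 and 24.2 at D8, DES had 436 (D0), 37.7 (D2), 4.05 (D4) and 35.7 (D8), and MYH11 was lowest at D8 (0.289). The part of these marker lists in the results below was not tested. Defining markers of other cells were scarce where listed. The endothelial markers CDH5, VWF and KDR and the leukocyte markers PTPRC, CD68 and CSF1R stayed under FPKM 1 in the 4 libraries. PECAM1 and CD14, the remaining marker of either list, reached FPKM 2.56 and 7.54. The 2 epithelial markers stayed under FPKM 1. The muscle factor MYOG was at 0 in 3 of the 4 libraries. The other skeletal muscle markers, PAX7, MYOD1 and MYF5, were not listed, so their levels are not known.

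Most of the enzymes, 8 of the 10, shared 1 shape. BCAT2, BCKDHA, BCKDHB, DBT, IVD, MCCC1, MCCC2 and ALDH6A1 were lowest at D0, higher at D2, highest at D4 and lower again at D8, an order of D0, D2 and D4 with a lower D8 that 2553 of the 9191 reliably expressed mRNAs (27.8%) also had. With median-ratio scaling, which evens out the typical mRNA between libraries, BCKDHB left this group, since its D4 and D2 values were nearly equal (log2 ratio 0.08 as deposited and -0.01 with that scaling). The exceptions were both in the valine branch, HIBADH, which was nearly flat, and HIBCH, which was highest at D0.

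**Figure D1:**
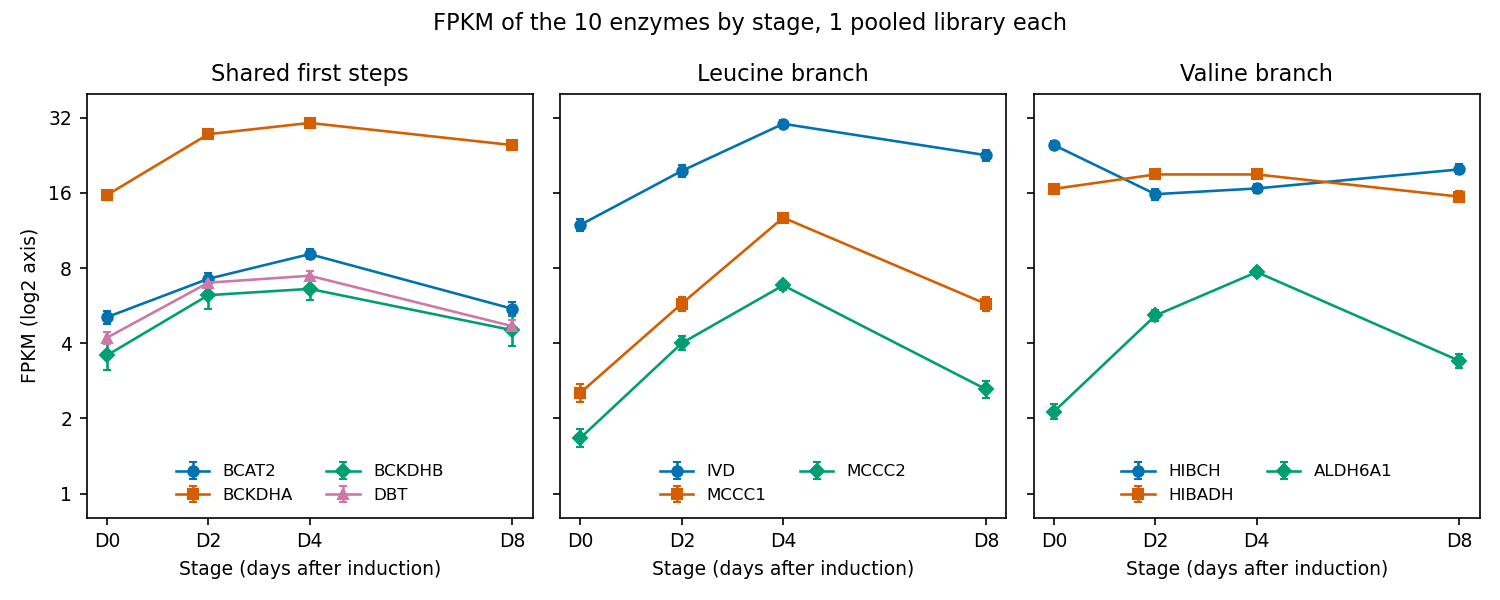
FPKM of the 10 enzymes (log2 axis) against the stage in days, in 3 panels for the shared first steps, the leucine branch and the valine branch. Points are the single pooled library of each stage, joined by lines for each gene, and bars are 95% intervals for counting error only. MCCC1 reaches 12.7 at D4 from 2.54 at D0, while HIBCH goes from 24.9 at D0 to 15.8 at D2.

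The 4 genes of the shared first steps were lowest at D0 and highest at D4 and differed in how far they were lower again at D8. BCAT2, on chromosome 6 from 54107682 to 54123595 of the pig genome build Sscrofa11.1, had FPKM 5.09 (D0), 7.25 (D2), 9.10 (D4) and 5.50 (D8). Between D4 and D0 its log2 ratio was 0.84 (95% interval 0.73 to 0.94). At D8 it was nearer to its D0 level, with a log2 ratio to D0 of 0.11 (-0.02 to 0.24) as deposited. With median-ratio scaling the ratio of D8 to D0 was 0.27. BCKDHA, the E1 alpha subunit that carries the regulatory phosphorylation sites of the complex, lies on the same chromosome from 49381995 to 49398745. It was the most abundant of the 4, with FPKM 15.7 (D0), 27.5 (D2), 30.5 (D4) and 24.9 (D8). At D8 BCKDHA was further above D0 than BCAT2, with a log2 ratio of 0.66 (0.58 to 0.74), or 0.82 with median-ratio scaling. BCKDHB, the E1 beta subunit on chromosome 1 from 85755819 to 86017661, had FPKM 3.58, 6.23, 6.60 and 4.51 in the same order of stages. DBT, on chromosome 4 from 117884657 to 117924006, had FPKM 4.21, 6.99, 7.45 and 4.68. For these 3 subunits the difference was nearly complete at D2, at log2 ratios to D0 of 0.81, 0.80 and 0.73, and D4 was higher than D2 by no more than 0.15. None of the 4 genes passed a ratio of 2 in any of the 5 comparisons.

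Within a library, ratios between subunits do not depend on how libraries are scaled. BCKDHB stood at 0.228 (0.197 to 0.263) of BCKDHA at D0, 0.227 at D2, 0.217 at D4, then 0.182 (0.156 to 0.210) at D8. DBT stood at 0.268 (0.251 to 0.287) of BCKDHA at D0, 0.254 at D2, 0.244 at D4, then 0.188 (0.175 to 0.202) at D8. The 3 mRNAs of the complex therefore kept their proportions from D0 to D4 within overlapping counting intervals, and at D8 BCKDHA was higher relative to DBT than in any earlier library, beyond counting error.

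The leucine branch held the 2 enzymes with the largest ratios of D4 to D0 among the 10, MCCC1 and MCCC2. IVD, on chromosome 1 from 130896488 to 130910582, had FPKM 11.9 (D0), 19.6 (D2), 30.2 (D4) and 22.7 (D8), and at D4 its level was within counting error of that of BCKDHA, the highest of the 10. MCCC1, the biotin-carrying subunit of methylcrotonyl-CoA carboxylase on chromosome 13 from 120983226 to 121070695, had FPKM 2.54, 5.77, 12.7 and 5.75. MCCC2, the other subunit, on chromosome 16 from 47917308 to 47996540, had FPKM 1.67, 4.01, 6.82 and 2.62. Between D4 and D0 the log2 ratio was 1.34 (1.24 to 1.44) for IVD, 2.32 (2.20 to 2.46) for MCCC1 and 2.02 (1.90 to 2.16) for MCCC2. Unlike the dehydrogenase complex, these genes were also clearly higher at D4 than at D2, with log2 ratios of 0.63 for IVD, 1.14 for MCCC1 and 0.77 for MCCC2. From D4 to D8 the 2 carboxylase subunits were lower by log2 ratios of -1.15 and -1.38, whereas IVD was lower by -0.42 only and at D8 still stood 0.93 (0.82 to 1.04) above D0. The ratio of MCCC2 to MCCC1 was 0.659 (0.585 to 0.743) at D0, 0.695 (0.634 to 0.761) at D2, 0.536 (0.507 to 0.567) at D4, then 0.455 (0.410 to 0.504) at D8, so that at D4 and D8 MCCC1 was higher relative to its partner, beyond counting error.

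The valine branch was split. HIBCH, which removes CoA from 3-hydroxyisobutyryl-CoA, lies on chromosome 15 from 94795744 to 94941362 and had FPKM 24.9 (D0), 15.8 (D2), 16.7 (D4) and 19.9 (D8). It was the most abundant of the 10 at D0, and it was the only one lower at D2 and D4 than at D0, by log2 ratios of -0.65 (-0.74 to -0.56) and -0.58 (-0.66 to -0.50). HIBADH, the dehydrogenase of the next step on chromosome 18 from 44985410 to 45102171, had FPKM 16.6, 19.0, 19.0 and 15.5. The values of HIBADH at D2 and D4 differed by less than counting error, and the sign of its small D8 to D0 difference turned from -0.10 to 0.05 with median-ratio scaling. ALDH6A1, which turns methylmalonate semialdehyde into propionyl-CoA, lies on chromosome 7 from 97360583 to 97381885 and had FPKM 2.13, 5.17, 7.71 and 3.40. Between D4 and D0 its log2 ratio was 1.85 (1.74 to 1.97), and from D4 to D8 it was -1.18 (-1.29 to -1.07). In profile ALDH6A1 was closest not to its own branch but to MCCC2, at a Euclidean distance of 0.164 between centred log2 FPKM over the 4 libraries, while its distance to HIBCH was 1.85.

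The order of the levels differed between stages. At D0, HIBCH came first (FPKM 24.9), followed by HIBADH (16.6) and BCKDHA (15.7), whose counting intervals overlapped, and the list ended with MCCC1 (2.54), ALDH6A1 (2.13) and MCCC2 (1.67). At D4, BCKDHA (30.5) and IVD (30.2) came first with overlapping intervals, HIBADH (19.0) and HIBCH (16.7) followed, and MCCC1 (12.7) now stood above BCAT2 (9.10) and DBT (7.45), which it had been below at D0. The lowest at D4 were MCCC2 (6.82) and BCKDHB (6.60), again with overlapping intervals, and the ratio of the highest to the lowest of the 10 was smaller than at D0.

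Set against all reliably expressed mRNAs, the 10 enzymes stood higher at D2 and D4. Between D2 and D0, 9 of the 10 were higher, beside 4413 of the 9191 mRNAs. The median log2 ratio was 0.76 beside -0.03 over the 9191 mRNAs. At least 2-fold higher were 3 of the 10, MCCC1, MCCC2 and ALDH6A1, beside 6.67% of all mRNAs, and none was at least 2-fold lower, beside 10.1%. With a pseudocount of 1 the 3 were just short of 2-fold, with log2 ratios of 0.94, 0.91 and 0.98. Between D4 and D2, 9 of the 10 were higher, beside 5740 of the 9191 mRNAs. With median-ratio scaling 7 of 10 were higher, and BCKDHB and HIBCH turned slightly below 0. Under that scaling the median of the 10 was 0.15 beside 0.00 over all mRNAs. As deposited, the median was 0.24 beside 0.09, and only MCCC1 passed 2-fold, beside 4.24% of all mRNAs higher and 0.838% lower. Between D4 and D0, the median was 0.92 beside 0.06, and 4 of the 10, IVD, MCCC1, MCCC2 and ALDH6A1, were at least 2-fold higher, beside 10.4% of all mRNAs, with none at least 2-fold lower, beside 8.81%. The ratio of 1.5 was passed by 7 enzymes upward and 1, HIBCH, downward in D2 vs D0, beside 15.6% and 20.1% of all mRNAs. In D4 vs D2 it was passed by 3 upward and 0 downward, beside 11.7% and 2.96%, and in D4 vs D0 by 8 upward and 0 downward, beside 22.0% and 17.5%. These comparisons share libraries and are not independent of each other. The 10 enzymes were chosen with earlier results of these data known. The part of that choice in their differences from all mRNAs, here and at D8, was not tested.

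At D8 most of the enzymes were lower than at D4. Between D8 and D4, 9 of the 10 were lower, beside 5967 of the 9191 mRNAs, and HIBCH was higher. The median log2 ratio of the 10 was -0.61. Over all mRNAs the median was itself -0.21 and came to 0.00 with median-ratio scaling, under which the median of the 10 was -0.40. Of the 6 reliably expressed adipocyte markers, 5 were also lower at D8 than at D4, with a median of -1.13, although the summed FPKM of all 8 was higher, and the 4 reliably expressed smooth muscle markers were all higher, with a median of 3.24. Of the 7 preadipocyte or fibroblast markers, 6 were lower, with a median of -0.51. The part of these markers in the lower enzyme levels was not tested. At least 2-fold lower were MCCC1, MCCC2 and ALDH6A1, 3 of the 10, beside 10.1% of all mRNAs, and none was at least 2-fold higher, beside 4.43%. With median-ratio scaling 1 of them, MCCC2, remained past 2-fold, beside 5.94% lower and 6.43% higher of all mRNAs. At a ratio of 1.5 or more, 5 of the 10 were lower and 0 higher, beside 25.9% and 9.92% of all mRNAs. Between D8 and D0, 8 of the 10 were higher, beside 2899 of the 9191 mRNAs, or 9 of the 10 with median-ratio scaling. The median was 0.49 beside -0.18 over all mRNAs, or 0.64 beside -0.03 with median-ratio scaling. Only MCCC1 was at least 2-fold higher at D8 than at D0, with FPKM 5.75 against 2.54, beside 3.6% of all mRNAs, and no enzyme was at least 2-fold lower, beside 3.68%. With a pseudocount of 1 its log2 ratio was 0.93 and no enzyme passed 2-fold. With median-ratio scaling IVD joined it, beside 4.41% higher and 2.26% lower. At a ratio of 1.5 or more, 5 of the 10 were higher and 0 lower at D8 than at D0, beside 6.92% and 14.6%.

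**Figure D2:**
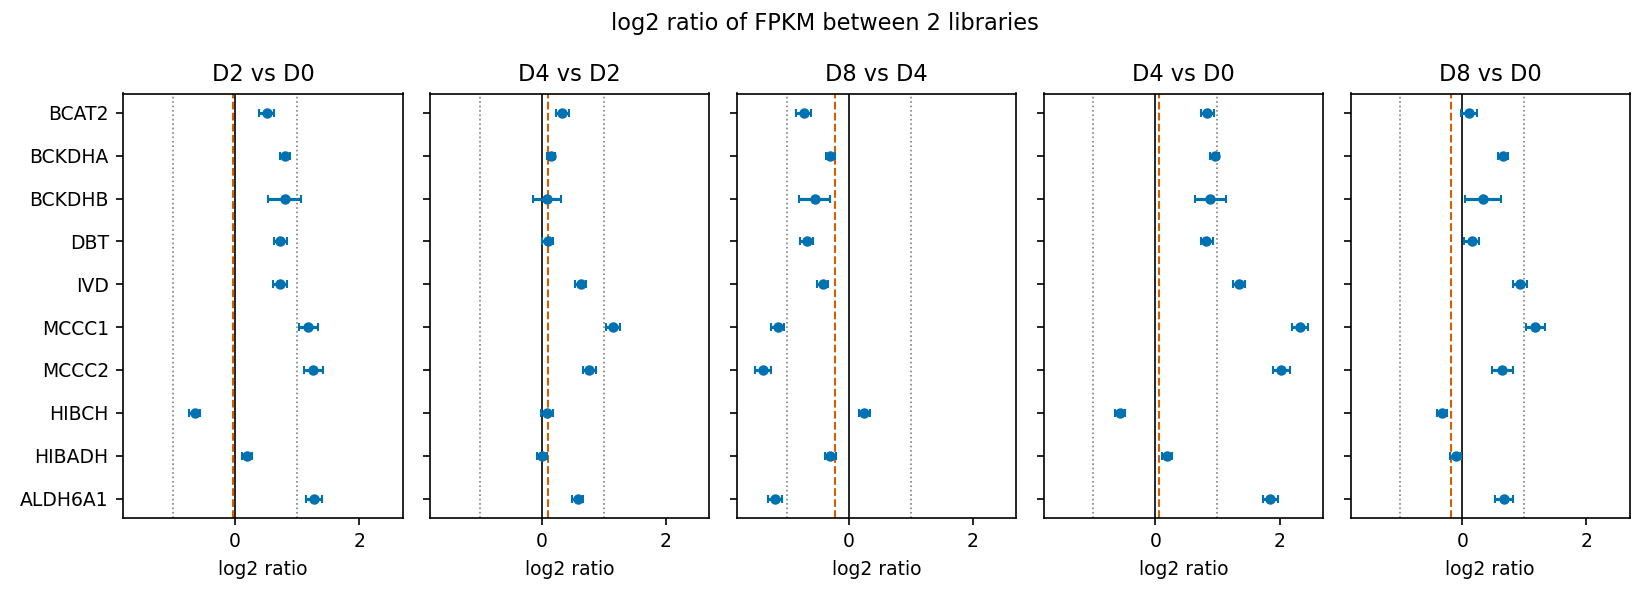
Log2 ratio of FPKM (x axis) for each of the 10 enzymes (rows) in 5 comparisons of 2 libraries. Bars are 95% counting intervals, the dashed line is the median over 9191 reliably expressed mRNAs, and dotted lines mark ratios of 2. From D0 to D4 the points of IVD, MCCC1, MCCC2 and ALDH6A1 lie beyond the dotted line, and HIBCH lies on the other side of 0 at -0.58.

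The remaining enzymes of the pathway had a smaller median ratio of D4 to D0. The lists were chosen with earlier results of these data known, and the part of that choice in this difference was not tested. All 13 on the list were found and reliably expressed, and between D4 and D0 their median log2 ratio was 0.35. None was at least 2-fold lower, beside 8.81% of all mRNAs, and 2 were at least 2-fold higher, beside 10.4%. These were ACAD8, the isobutyryl-CoA dehydrogenase of the valine branch, with FPKM 8.37 (D0), 11.6 (D2), 20.1 (D4) and 12.9 (D8), and PCCA, the biotin-carrying subunit of propionyl-CoA carboxylase, with FPKM 3.71, 6.57, 10.5 and 4.39. PCCA was also the only one of the 13 to be at least 2-fold lower from D4 to D8 (log2 ratio -1.26, interval -1.39 to -1.13), beside 10.1% of all mRNAs. The partner subunit PCCB stayed between FPKM 35.4 and 45.8. In the valine branch, ACAD8 and ALDH6A1 thus passed a ratio of 2 between D4 and D0, whereas ECHS1, HIBCH and HIBADH, which act between them, did not. DLD, the E3 subunit shared with other complexes, had FPKM 51.3 (D0), 36.0 (D2), 42.0 (D4) and 53.3 (D8), so that it was lower at D2 and D4, when BCKDHA, BCKDHB and DBT were higher.

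The cytosolic transaminase BCAT1 was lowest at D4, where its mitochondrial counterpart BCAT2 was highest. BCAT1 had FPKM 24.9 (D0), 22.4 (D2), 15.4 (D4) and 27.6 (D8), with a log2 ratio of D4 to D0 of -0.69 (-0.74 to -0.63). The ratio of BCAT2 to BCAT1 was 0.205 (0.192 to 0.218) at D0, 0.323 (0.303 to 0.345) at D2, 0.589 (0.559 to 0.621) at D4, then 0.199 (0.185 to 0.213) at D8. It was highest at D4, and at D8 it was within counting error of D0, with BCAT1 the more abundant mRNA in each of the 4 libraries.

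The kinase and the phosphatase of the dehydrogenase complex differed in profile. BCKDK, the kinase that inactivates the complex, had FPKM 18.2 (D0), 14.1 (D2), 15.1 (D4) and 15.1 (D8). PPM1K, the phosphatase that activates it, had FPKM 5.98, 5.69, 3.01 and 6.36, with its lowest value at D4, at a log2 ratio to D0 of -0.99 (-1.07 to -0.91), and a log2 ratio of D8 to D4 of 1.08. The ratio of BCKDK to PPM1K was 3.04 (2.89 to 3.19) at D0, 2.48 (2.33 to 2.64) at D2, 5.02 (4.73 to 5.34) at D4, then 2.38 (2.24 to 2.53) at D8. The D4 library, in which 8 of the 10 enzyme mRNAs were highest, was therefore also the one with the highest ratio of kinase to phosphatase mRNA. Of all reliably expressed mRNAs, 37.3% were highest in that library. KLF15, a transcription factor known for its part in amino acid breakdown, had FPKM 0.657 (D0), 5.20 (D2), 5.39 (D4) and 1.20 (D8), with a log2 ratio of D2 to D0 of 2.97 (2.71 to 3.27).

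**Figure D3:**
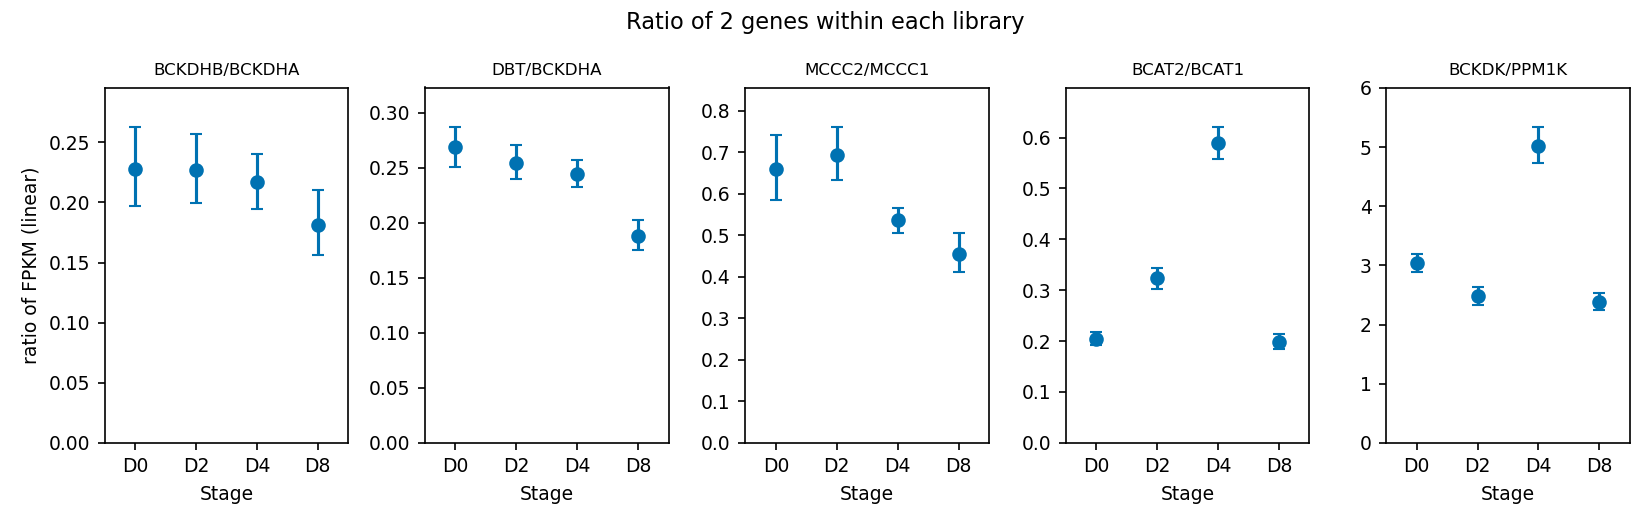
Ratio of the FPKM of 2 genes within each library (y axis, linear, from 0) at the 4 stages, for 5 pairs of genes. Bars are 95% counting intervals. The ratio of BCAT2 to BCAT1 (0.589) and that of BCKDK to PPM1K (5.02) are highest at D4, and DBT to BCKDHA is lowest at D8 (0.188).

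Among the genes for cofactors, HLCS, the ligase that attaches biotin to carboxylases such as MCCC1 and PCCA, had FPKM 5.69 (D0), 8.78 (D2), 12.7 (D4) and 6.03 (D8). Its log2 ratio was 1.15 (1.09 to 1.22) from D0 to D4 and -1.07 from D4 to D8. HLCS was the only 1 of the 6 cofactor genes analysed, for biotin, lipoate and cobalamin, with a ratio of at least 2 in any comparison. Of all mRNAs, 10.4% were at least 2-fold higher in D4 vs D0 and 10.1% at least 2-fold lower in D8 vs D4. The median of the 6 between D4 and D0 was 0.15, beside 0.06 over all mRNAs. Of the transporters, SLC25A44, the mitochondrial BCAA carrier, had FPKM 2.59, 3.96, 5.001 and 2.34 at D0, D2, D4 and D8, close to the shape of the enzymes. SLC43A2, a transporter of large neutral amino acids at the cell surface, was not reliably expressed, with FPKM 0.670 (D0), 6.10 (D2), 10.7 (D4) and 0.910 (D8). SLC3A2, the heavy chain of the cell-surface exchanger, stayed between FPKM 66.0 and 88.8, whereas SLC7A8 and SLC43A1 stayed under FPKM 1.

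Beta-oxidation and the citrate cycle, both also mitochondrial, had medians nearer to 0 than the 10 enzymes in D4 vs D0 and D8 vs D4. Between D4 and D0, 17 reliably expressed genes of beta-oxidation had a median log2 ratio of 0.41, with 5 at least 2-fold higher and 1 at least 2-fold lower. The 17 genes of the citrate cycle had a median of 0.00, with none past 2-fold. Of all mRNAs, 10.4% were at least 2-fold higher and 8.81% at least 2-fold lower. Beta-oxidation reached from CPT1A (-1.32) and ACADM (-0.58) to HADH (1.48) and ECI1 (2.26), and the citrate cycle from SUCLA2 (-0.93) and SUCLG2 (-0.50) to CS (0.95). Between D8 and D4 the medians were -0.17 for beta-oxidation and -0.11 for the citrate cycle, beside -0.61 for the 10 enzymes and -0.21 for all mRNAs. A lower median at D8 was also found elsewhere: 11 genes for the breakdown of other amino acids had medians of 0.60 in D4 vs D0 and -0.76 in D8 vs D4. For 9 genes of the pyruvate dehydrogenase complex and its regulators the medians were 0.54 and -0.19, the second close to that of all mRNAs. With 1 library per stage, no test of these differences between lists was made. The enzymes and the lists were chosen with earlier results of these data known, and the part of that choice was not tested.

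**Figure D4:**
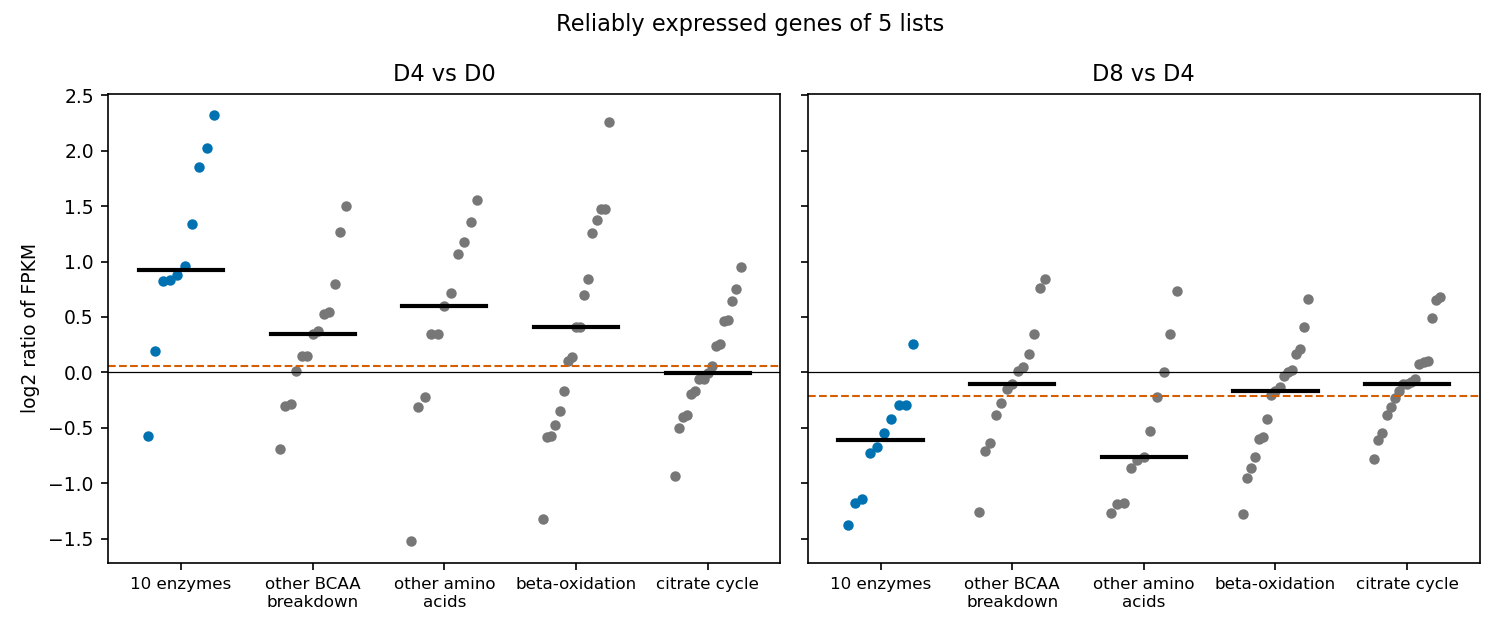
Log2 ratio of FPKM (y axis) of D4 to D0 and of D8 to D4 for the reliably expressed genes of 5 lists, 1 point per gene. Thick bars are list medians and the dashed line is the median over all reliably expressed mRNAs. In D4 vs D0 the bar of the 10 enzymes lies at 0.92, that of the other BCAA breakdown enzymes at 0.35 and that of the citrate cycle at 0.00.

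Circular RNAs, formed by back-splicing, were listed for 5 of the 10 genes, with 9 of the 8623 circRNAs of the series inside these genes on their strand. Their unit is SRPBM, junction reads scaled by all mapped reads, and 1 junction read was worth between 5.94 and 8.40 SRPBM. HIBCH held 4 of the 9, DBT 2, and BCKDHB, MCCC2 and HIBADH 1 each. The circRNA of HIBADH, from 44996263 to 45011080 on chromosome 18, had 9 (D0), 23 (D2), 18 (D4) and 6 (D8) junction reads, while the mRNA of HIBADH was nearly flat. That of MCCC2, from 47957476 to 47974319 on chromosome 16, had 0 (D0), 3 (D2), 16 (D4) and 0 (D8) junction reads. HIBCH had a circRNA from 94830414 to 94839646 with 3, 10, 4 and 12 junction reads, and another from 94848035 to 94922554 with 13 junction reads at D4 and none in the other 3 libraries. Since the authors kept circRNAs with at least 2 junction reads, a value of 0 here means not detectable by that minimum at this depth, and differences of a few reads lie within counting error. All 9 circRNAs together counted 16 (D0), 68 (D2), 57 (D4) and 29 (D8) junction reads. All circRNAs of the series counted 53207 (D0), 43989 (D2), 51074 (D4) and 37480 (D8), so that read numbers are not on 1 scale between libraries. Only 2 of the 9 were found in each of the 4 libraries.

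The nearest reliably expressed gene of each of the 10 had a log2 ratio of D4 to D0 between -1.93 and 0.47, beside -0.58 to 2.32 for the enzymes, with 0 of the 10 at least 2-fold higher and 2 at least 2-fold lower, TTK beside BCKDHB and INPP1 beside HIBCH, where 10.4% of all mRNAs were higher and 8.81% lower. Head to head with its neighbour at a short distance stood BCKDHA, 120 bases from EXOSC5, and ALDH6A1, 135 bases from LIN52. LIN52, a subunit of a cell cycle regulator complex, had FPKM 1.57 (D0), 1.58 (D2), 1.88 (D4) and 1.40 (D8), whereas ALDH6A1 had a D4 level of 7.71 against 2.13. HIBCH and INPP1, 15173 bases apart and also head to head, were both lower at D4 than at D0, INPP1 with FPKM 16.1 at D0 and 4.23 at D4. On the opposite strand, LOC106510565 overlapped BCAT2 with FPKM of at most 0.0450, and BBOF1 overlapped ALDH6A1 with FPKM of at most 0.568.

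The mRNAs closest in profile to the 10 enzymes were looked for among 6650 others with FPKM of at least 5 in 1 library. By the Euclidean distance to the median centred profile of the 10, over the 4 libraries, they were RAB8A, a vesicle transport GTPase (0.0746), DDX28, a mitochondrial RNA helicase (0.0764), RPS20, a protein of the cytosolic ribosome (0.0769), HEMK1, a mitochondrial methyltransferase (0.0836), and CTSB, the lysosomal protease cathepsin B (0.0859). Among the 10 themselves, BCKDHB and DBT were closest to each other (0.131), followed by MCCC2 and ALDH6A1 (0.164), and MCCC1 and HIBCH were farthest apart (2.08).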

How the data were processed

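RNA of 3 piglets per stage had been pooled by the authors before 1 strand-specific, rRNA-depleted library was made and sequenced. Per the labels and methods, reads were trimmed and aligned to Sscrofa11.1 with HISAT2 2.0.5, and circRNAs were called with BWA-MEM and CIRI from at least 2 junction reads. The authors deposited 1 column per library, with FPKM for genes and SRPBM for circRNAs. The fragment counter is not given in the sources used here.

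Ratios were computed as log2(FPKM + 0.01) in Python 3.11.15, and a ratio of at least 2 was counted for the reliably expressed mRNAs. Library totals came from counts and normalized counts in the study's gene lists. The smallest gene length between 100 and 30000 bases that turned the 4 FPKM values into whole reads (tolerance 0.02 reads) was found for 99.9% of 9191 mRNAs. Of 14 read numbers of the 10 enzymes that could be checked against the study's counts, 14 were equal, and 95.3% of 8263 over all mRNAs. A multiple of the length also gives whole reads, so intervals, which are exact binomial or Poisson, may be too wide, above all for BCKDHB. Ratios and read recovery were tested on simulated data.

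The enzymes and lists were chosen with earlier results of these data known. Named by rule were the 10 enzymes, genes of the BCAA, cofactor and transporter lists with a ratio of at least 2 (with BCAT1, DLD, BCKDK, PPM1K and SLC25A44), the 2 highest and 2 lowest genes of each comparison list for D4 vs D0 (1 of these is not reported here), and the 5 genes closest in profile. PCCB, ECHS1, SLC3A2, SLC7A8, SLC43A1, the neighbours and the overlapping genes were added after their values were seen. Of the listed genes, 9 without a row of their symbol were not analysed here. Gene positions and names were matched to RefSeq.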

Additional observations from a re-analysis of the deposited data

How the results depend on the processing

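With 1 library per stage, replicates could not be left out, and stage, pooling and library cannot be told apart. No paired analysis was possible because each stage has 1 library and no test was made. The pseudocount of 0.1, the absence of the filter on low FPKM and the requirement of a counting interval without 0 moved no count by more than 1.5 times. With a pseudocount of 1, the enzymes at least 2-fold higher numbered 0 in D2 vs D0 and 0 in D8 vs D0. With median-ratio scaling, the median log2 ratio was 0.15 in D4 vs D2 and -0.40 in D8 vs D4, with 1 enzyme at least 2-fold lower in D8 vs D4 and 2 at least 2-fold higher in D8 vs D0. With equal sums over protein-coding genes, the median was 0.87 in D2 vs D0. At a ratio of at least 1.5, 7 enzymes were higher and 1 lower in D2 vs D0, 3 were higher in D4 vs D2, 5 were lower in D8 vs D4, 8 were higher in D4 vs D0 and 5 in D8 vs D0. Of 200 ratios of single enzymes under 4 scalings or pseudocounts, 3 changed sign, those of BCKDHB and HIBCH in D4 vs D2 and of HIBADH in D8 vs D0, and 8 crossed the ratio of 2.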

Other observations

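Breakdown of other amino acids showed values of both kinds. Of 16 genes analysed, 11 were reliably expressed, with a median log2 ratio of 0.60 between D4 and D0, 4 at least 2-fold higher and 1 at least 2-fold lower, beside 10.4% and 8.81% of all mRNAs. The highest ratios were those of GCDH (1.55), the glutaryl-CoA dehydrogenase, and DHTKD1 (1.36), which acts before it in lysine breakdown. The lowest were AASS (-1.52), the first enzyme of that same route, and GPT2 (-0.31), a mitochondrial alanine transaminase. From D4 to D8 the median of the 11 was -0.76, with 3 at least 2-fold lower and none at least 2-fold higher, beside 10.1% and 4.43% of all mRNAs.

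The pyruvate dehydrogenase complex, which is built like the branched-chain complex and shares DLD with it, was listed with its kinases and phosphatases. Of 10 genes, 9 were reliably expressed, with a median of 0.54 between D4 and D0. The regulators lay at both ends, with PDK4 (3.60), a kinase, and PDP2 (1.96), a phosphatase, the highest, and the phosphatase PDP1 (-0.55) and the kinase PDK1 (-0.39) the lowest.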
